A study of Mus musculus with 12 samples.

Results

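The 53 genes described here encode phosphoinositide 3-kinases (PI3K), Akt (*Akt1* and *Akt2*) and its partners, and the other enzymes that add or remove phosphates on the inositol ring of phosphoinositides. They were found by their symbols among the 51490 genes in the deposited table, and all 53 were found. The rule uses no measured value, and the set was proposed with earlier results of these data known. Of the 53, 50 passed the filter on low counts and were tested among 15037 genes, while *Pik3cg*, *Inpp5j*, and *Pip5k1b* did not pass.

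Gene expression was measured by RNA-seq in immortalized mouse embryonic palatal mesenchyme (iMEPM) cells, which derive from a male embryo lacking *Cdkn2a*, an allele state that all groups share. The cells stably expressed a scramble shRNA or an shRNA against *Srsf3* (shSrsf3), which encodes an RNA-binding splicing factor, and each shRNA is represented by 1 sorted, transduced pool of cells. After serum starvation for 24 hr, cells either received no ligand (-PDGF-AA) or the growth factor PDGF-AA at 10 ng/mL for 1 hr (+PDGF-AA). There were 3 biological replicates in each of the 4 groups. Because there is 1 line per shRNA, a difference between lines and a difference made by the shRNA cannot be told apart.

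Class I PI3K enzymes are dimers of a catalytic and a regulatory subunit that bind activated receptor tyrosine kinases, such as the PDGF receptors, and phosphorylate a lipid of the plasma membrane. The product recruits Akt, which is then activated by phosphorylation, and PI3K/Akt signaling is a major output of PDGFRα in the developing skeleton and face. Other kinases and phosphatases set the supply of each phosphoinositide at the plasma membrane, endosomes, and the Golgi, and phosphatases such as those described below turn the signal over. The samples measure mRNA, and neither enzyme activity nor protein was measured in these files.

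RefSeq promoter sequences on GRCm38.p6 were matched for 46 of the 53 members. The sequences of 3 are shown because, among members above 1 CPM, their genes carry the largest rise between the lines (*Pi4k2b*), the largest mean fall (*Inpp5k*), and the called response to ligand (*Mtmr10*). Each is the 250 bases before the start of the gene, 5′ to 3′ on the + strand, and capitals mark matches to the GC box on either strand. *Pi4k2b* lies at chr5:52741324-52741573, *Inpp5k* at chr11:75630770-75631019, and *Mtmr10* at chr7:64287420-64287669.
Pi4k2b: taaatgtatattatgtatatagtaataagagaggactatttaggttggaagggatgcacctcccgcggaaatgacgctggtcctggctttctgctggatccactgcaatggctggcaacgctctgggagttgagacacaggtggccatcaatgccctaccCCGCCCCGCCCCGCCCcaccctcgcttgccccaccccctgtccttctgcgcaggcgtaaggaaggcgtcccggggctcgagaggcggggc
Inpp5k: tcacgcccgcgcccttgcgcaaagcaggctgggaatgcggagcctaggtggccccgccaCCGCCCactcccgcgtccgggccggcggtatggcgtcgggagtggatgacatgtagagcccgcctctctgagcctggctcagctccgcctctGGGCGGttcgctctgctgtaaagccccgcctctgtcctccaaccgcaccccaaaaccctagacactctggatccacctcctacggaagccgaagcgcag
Mtmr10: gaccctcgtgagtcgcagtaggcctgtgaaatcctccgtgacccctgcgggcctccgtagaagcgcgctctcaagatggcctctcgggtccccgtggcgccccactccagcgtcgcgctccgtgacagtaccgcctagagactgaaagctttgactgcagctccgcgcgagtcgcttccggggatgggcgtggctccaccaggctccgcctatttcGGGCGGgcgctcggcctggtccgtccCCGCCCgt
The *Pi4k2b* window holds 3 GC boxes that overlap each other at their ends, whereas the *Inpp5k* and *Mtmr10* windows hold 2 each.

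Across the members, the GC box (GGGCGG) was present in the promoters of 40 of the 46 genes, or 87.0%, compared with 35.4% of 27025 genes in the same table. The CCAAT box (CCAAT) was present in 23 of 46, or 50.0%, compared with 37.5%. The FoxO site (GTAAACA) was present in 5 of 46, or 10.9%, compared with 3.54%, and the E-box (CACGTG) in 3 of 46, or 6.52%, compared with 6.86%. Both strands were searched over windows of equal length, and these 4 motifs do not contain one another. A gene with several start sites counted once, if any of its windows matched, so more start sites gave more sequence to search. The 27025 genes outnumber the 15037 tested and so include genes with low or no counts here, unlike most members. They were not matched to the members for expression or number of start sites. A match is a description of the letters only.

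Total counts ranged from 30958870 to 76123207 per sample. *Srsf3*, the targeted gene, was between 198.7 and 230.8 CPM (TMM-scaled counts relative to library size) in scramble samples and between 161.0 and 169.5 CPM in shSrsf3 samples, with log2 fold changes of -0.34 and -0.43 without and with ligand (adjusted p = 7.95e-06 and 9.54e-07). These values are mRNA, and by western blotting the authors reported a larger decrease of the Srsf3 protein in the shSrsf3 line. Of 14 palatal mesenchyme markers, 13 passed the filter (not *Meox2*), and *Msx1* and *Osr2* were low, at 0.72 to 1.71 and 2.73 to 5.23 CPM by group mean. The summed level of the 14 was lower in shSrsf3 samples, at 36164.4 to 38391.6 CPM without ligand and 35624.4 to 38491.0 with ligand, against 40230.3 to 41969.1 and 40350.1 to 41009.2 in scramble samples. *Col1a1*, *Col1a2*, *Col3a1*, and *Vim* made up nearly all of this sum. *Col1a2* had group means of 12477.2 and 12625.9 CPM in scramble and 9657.1 and 9597.9 CPM in shSrsf3 samples. By group mean, *Vim*, *Twist1*, *Twist2*, and *Meox2* were higher in shSrsf3 samples in both ligand conditions, and the other markers were lower. Among the lower markers was *Pdgfra*, which encodes PDGFRα, the receptor for the ligand used. Without ligand it was at 51.35 CPM in shSrsf3 against 73.91 in scramble samples, and with ligand at 46.56 against 59.9. The 5 endothelial markers summed to 19.25 to 22.96 CPM in shSrsf3 samples and 30.56 to 34.6 in scramble samples. *Tek* alone made up most of this sum, with group means of 30.61 and 32.4 CPM in scramble and 20.02 and 18.03 CPM in shSrsf3 samples, while *Cdh5*, *Kdr*, and *Emcn* had higher means in shSrsf3 samples, at most 1.49 CPM. Epithelial markers (8 genes) summed to between 7.3 and 10.3 CPM in all samples. Within this sum, *Cdh1* was lower in shSrsf3 samples, with group means of 0.4837 and 0.5625 CPM against 2.361 and 2.168 in scramble samples. *Krt19* was higher, at 4.012 and 5.012 against 2.98 and 2.707 CPM. Blood cell markers (6 genes) summed to between 1.25 and 2.35 with *Cd3e* and *Hba-a1* at 0, and neuronal markers (5 genes) to at most 0.299 with *Elavl4* and *Snap25* at 0. Skeletal muscle markers (5 genes) summed to 29.9 to 31.25 CPM in unstimulated shSrsf3 samples and to 23.98 to 25.06 in unstimulated scramble samples, and to 23.88 to 25.77 and 24.78 to 26.46 with ligand. *Acta1* made up nearly all of this sum, and *Myod1* and *Ckm* were at 0. The part of these marker shifts in the differences below was not tested, and fewer cells of a type cannot be told apart from less RNA per cell.

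The phosphoinositide enzymes differed between shSrsf3 and scramble cells in both directions and by small amounts. Without ligand, 27 of the 50 members tested reached an adjusted p of at most 0.05, or 54.0%, while 45.9% of all genes tested were called. Of these, 15 were higher in shSrsf3 cells, or 30.0% against a background of 22.2%, and 12 were lower, or 24% against 23.7%. In the presence of ligand, 24 were called, or 48.0% against 41.0%. In that comparison 11 were higher, or 22% against 20.3%, and 13 were lower, or 26% against 20.7%. Of the 4 counts by direction, the widest gap to the background was that of genes higher in shSrsf3 cells without ligand. That count includes *Akt1*, *Pik3cb*, and *Pip5k1a*, whose calls were lost when single samples were left out, as given below. With ligand, the same direction was near its background.

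The sizes of the differences were modest. The median absolute log2 fold change of the members was 0.129 without ligand and 0.118 with ligand, whereas it was 0.203 and 0.188 over all genes tested. The signed medians were 0.02 and 0.01, compared with -0.02 and -0.01 over all genes. All genes tested were not matched to the members for expression, and their log2 fold changes ranged from -11.67 to 10.96 without ligand. For the interaction of shRNA and ligand, the median absolute values were 0.06 for the members and 0.087 for all genes. How far genes with low counts widen the values over all genes was not tested. No member reached a 2-fold change without ligand, against 5.75% of all genes, and 2 members did so with ligand, against 5.42%. These were *Inpp4b* and *Mtmr7*, both under 1 CPM in every sample. The low-count filter needs enough counts in only as many samples as a group holds. Both genes can therefore have passed it through the groups where they were higher, which limits these calls. The 3 scramble and 3 shSrsf3 samples did not overlap for 32 members without ligand, or 64.0% against 53.3% of all genes, and for 27 members with ligand, or 54.0% against 52.6%.

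The comparisons without and with ligand use different samples of the same lines. In both, 10 members were called higher, or 20.0% against 16.7% of all genes, and 10 were called lower, or 20.0% against 16.9%. The 10 higher members were *Pi4k2b*, *Akt2*, *Inpp4a*, *Phlpp2*, *Pik3r2*, *Inpp5a*, *Pip4k2b*, *Pik3r1*, *Sacm1l*, and *Pik3cb*. The 10 lower members were *Mtmr7*, *Inpp5k*, *Pik3r3*, *Pik3c2a*, *Mtmr9*, *Mtmr1*, *Pip4k2a*, *Inpp5f*, *Synj1*, and *Pip5k1c*. A further 7 were called only without ligand, 4 only with ligand, and 19 in neither, and no member was called with opposite signs. The log2 fold change had the same sign in both comparisons for 42 of the 50.

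**Figure D1:**
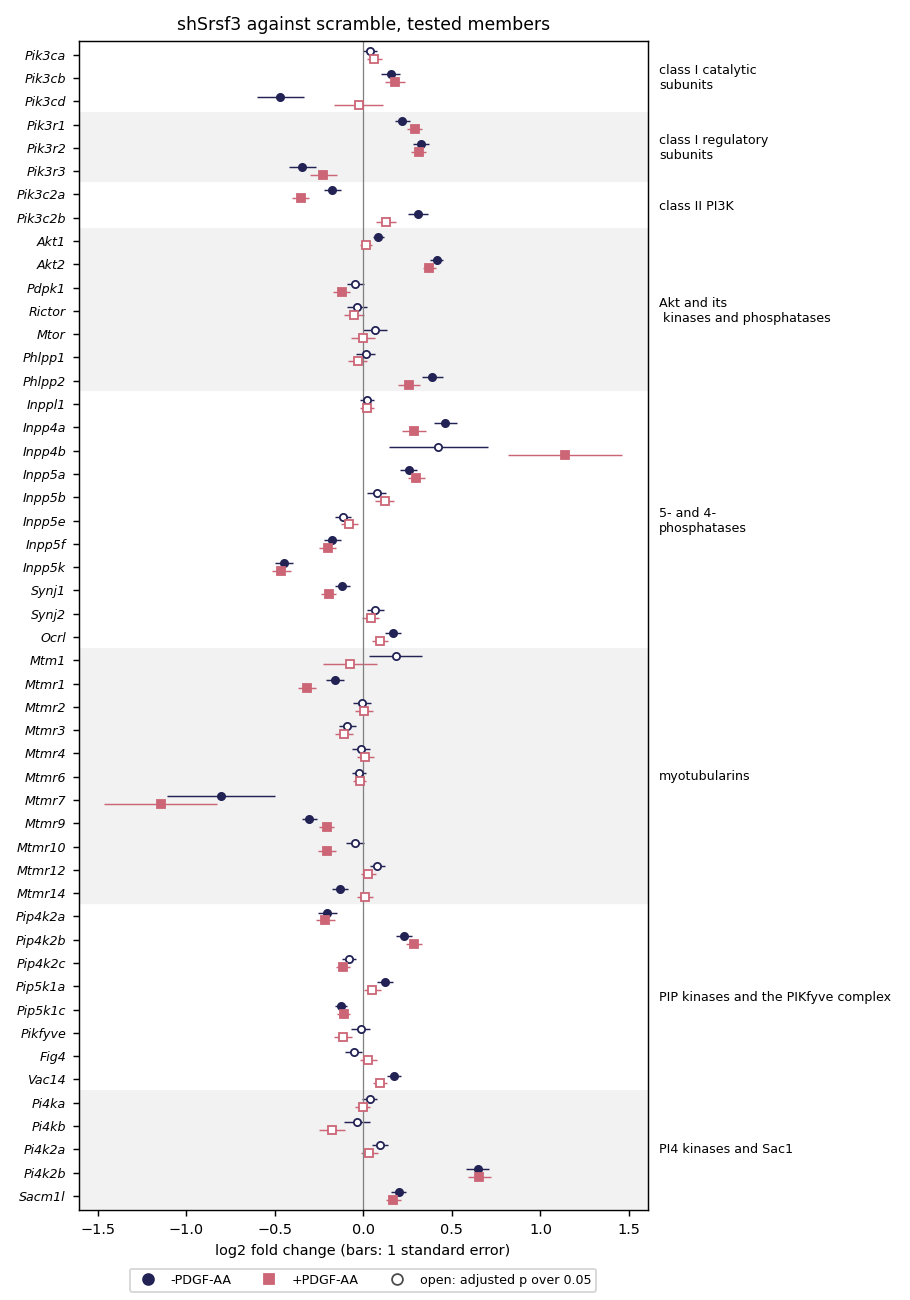
Log2 fold change (x axis) of shSrsf3 against scramble samples for the 50 tested members (y axis, grouped by role), with bars of 1 standard error and filled symbols where the adjusted p was at most 0.05. *Pi4k2b* sits at 0.65 in both comparisons, *Inpp5k* at -0.45 and -0.46, and all called myotubularins lie on the lower side.

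Among the class I catalytic subunits, the widely expressed *Pik3ca* and *Pik3cb* supplied nearly all of the mRNA, and the leukocyte-enriched *Pik3cd* and *Pik3cg* supplied little. On a scale that allows genes to be compared (CPM per kb of exon), *Pik3ca* was at 6.04 ± 0.146 and *Pik3cb* at 5.26 ± 0.0706 in unstimulated scramble samples (SD, n = 3), whereas *Pik3cd* was at 0.529 ± 0.0776. *Pik3cg* had between 0 and 3 counts in every sample, at or under 3 counts per library, and no fold is given for it. In counts, the 3 unstimulated scramble samples and sample 3 of the unstimulated shSrsf3 group were at 0, and the other 8 samples held 1, 2, or 3 counts.

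*Pik3ca* did not pass the test in either shRNA comparison. Its level was 52.53, 53.96, and 55.13 CPM in scramble samples and 53.56, 57.69, and 54.66 CPM in shSrsf3 samples without ligand, and 50.97, 51.36, and 54.36 against 53.65, 54.82, and 55.0 CPM with ligand. The groups overlapped in both conditions, with log2 fold changes of 0.04 (SE 0.0412, adjusted p = 0.488) and 0.06 (SE 0.0415, adjusted p = 0.269). *Pik3cb* was at 35.02, 35.22, and 34.33 CPM in scramble samples and at 37.99, 39.5, and 38.77 CPM in shSrsf3 samples without ligand. In the stimulated groups, its level was 35.28, 30.43, and 33.51 against 37.33, 34.88, and 40.17 CPM. These groups were separate without ligand and overlapped with ligand, and the log2 fold changes of 0.15 (SE 0.0561, adjusted p = 0.0389) and 0.18 (SE 0.0569, adjusted p = 0.0221) passed the test. The first call was lost without any 1 of the 6 unstimulated samples (adjusted p from 0.0591 to 0.115). The second was lost without scramble sample 2 or shSrsf3 sample 1 or 3 of the stimulated groups (adjusted p from 0.0537 to 0.107).

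*Pik3cd* was at 3.143, 2.828, and 3.763 CPM in scramble samples and 2.24, 2.156, and 2.738 CPM in shSrsf3 samples without ligand. All 3 shSrsf3 samples were below the scramble samples, and the log2 fold change was -0.47 (SE 0.133, adjusted p = 0.0105). Without scramble sample 3, it was -0.33 and no longer called (adjusted p = 0.0633). With ligand, *Pik3cd* was at 2.674, 3.03, and 2.751 CPM against 2.886, 2.757, and 2.639 CPM, the groups overlapped, and the log2 fold change was -0.03 (SE 0.136, adjusted p = 0.895).

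The regulatory subunits hold the catalytic subunit and dock it on phosphorylated receptors and adaptors, and all 3 members of this group were called in both shRNA comparisons, against 16.7% of all genes called higher and 16.9% called lower in both. *Pik3r2* was at 69.73, 73.59, and 79.35 CPM in scramble samples and 91.9, 93.39, and 93.66 CPM in shSrsf3 samples without ligand. Upon ligand stimulation it was at 72.31, 74.86, and 71.81 against 90.64, 90.32, and 90.89 CPM. The shSrsf3 samples were higher with no overlap, and the log2 fold changes were 0.32 (SE 0.0439, adjusted p = 4.75e-05) and 0.31 (SE 0.0441, adjusted p = 7.28e-05). *Pik3r1* rose as well. It was at 49.49, 47.82, and 51.13 CPM in scramble samples and 58.13, 56.94, and 57.8 CPM in shSrsf3 samples without ligand, and at 49.48, 50.08, and 48.19 against 57.13, 60.83, and 62.86 CPM with ligand. Again the groups did not overlap, with log2 fold changes of 0.22 (SE 0.0422, adjusted p = 0.000856) and 0.29 (SE 0.0424, adjusted p = 9.63e-05).

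*Pik3r3*, the third regulatory gene, fell. It was at 10.81, 10.94, and 12.56 CPM in scramble samples and 9.012, 9.232, and 8.832 CPM in shSrsf3 samples without ligand, and at 10.91, 10.88, and 11.38 against 8.417, 10.04, and 9.977 CPM with ligand. All shSrsf3 samples were below all scramble samples, with log2 fold changes of -0.34 (SE 0.0752, adjusted p = 0.00209) and -0.23 (SE 0.0773, adjusted p = 0.0313). The call with ligand was lost without scramble sample 1 or 3 or shSrsf3 sample 1 of the stimulated groups (adjusted p from 0.0547 to 0.186), and with DESeq2. Of the 31-base sequences of *Pik3r3*, 21.4% also occur in other genes, mostly *Gm49337*, which was at 0.898 to 1.978 CPM and was not called (adjusted p = 0.328 and 0.337), so the split of reads between these genes is uncertain. Per kb of exon, *Pik3r2* was the most abundant regulatory gene, with 71.4% ± 0.871 of the summed level of the 3 in unstimulated scramble samples and 74.4% ± 0.309 in unstimulated shSrsf3 samples (SD, n = 3). *Pik3r3* made up 6.74% ± 0.209 and 4.43% ± 0.107 of this sum, respectively, and the *Pik3r3* shares did not overlap between the lines in either ligand condition.

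**Figure D2:**
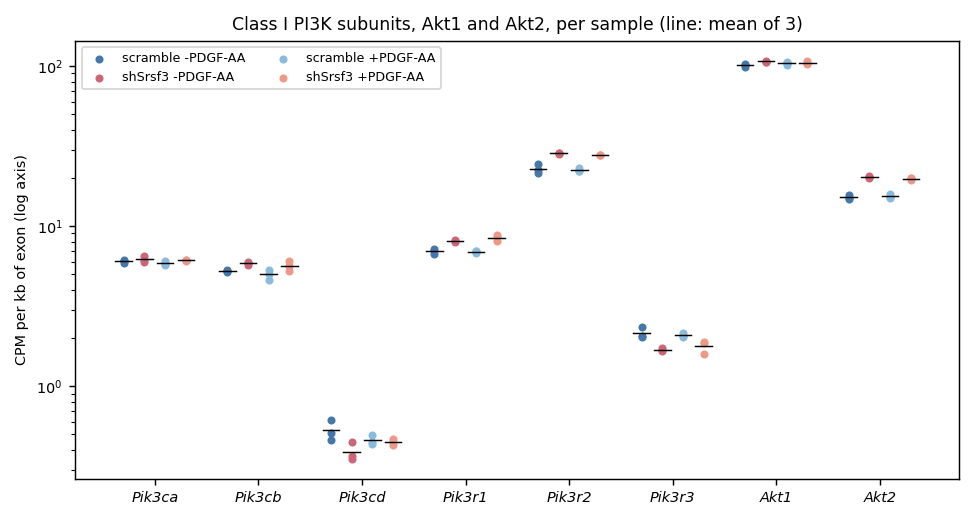
Level in CPM per kb of exon (y axis, log scale) of the class I PI3K subunits, *Akt1*, and *Akt2* (x axis), with 1 point per sample, colored by group, and a line at the mean of 3. Of the genes plotted, which leave out *Pik3cg*, *Akt1* is highest, with a mean of 100.9 in unstimulated scramble samples, *Pik3cd* is lowest, with group means from 0.388 to 0.529, and *Pik3r2* and *Akt2* are higher in shSrsf3 samples than in scramble samples.

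Class II PI3K enzymes make phosphoinositides on endosomes and in clathrin-coated pits, and the 2 members moved apart. *Pik3c2a* was at 95.68, 92.3, and 98.13 CPM in scramble samples and 82.9, 84.7, and 85.61 CPM in shSrsf3 samples without ligand. With ligand it was at 109.4, 100.4, and 114.3 against 88.31, 83.07, and 82.04 CPM. It was lower in shSrsf3 cells with no overlap, with log2 fold changes of -0.18 (SE 0.0487, adjusted p = 0.00925) and -0.35 (SE 0.0489, adjusted p = 5.93e-05). *Pik3c2b* was higher without ligand, with a log2 fold change of 0.31 (SE 0.0566, adjusted p = 0.000643), and did not pass the test with ligand, at 0.13 (adjusted p = 0.0969). The call with ligand was gained when shSrsf3 sample 2 of the stimulated group was left out, at 0.17 (adjusted p = 0.0424).

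Akt phosphorylates many substrates in growth and survival, and *Akt1* was the most abundant member of the entire set, at 100.9 ± 2.01 CPM per kb of exon in unstimulated scramble samples (SD, n = 3). *Akt2* was at 71.86, 67.89, and 68.94 CPM in scramble samples and 91.19, 92.75, and 93.99 CPM in shSrsf3 samples without ligand. In the stimulated groups, its level was 72.45, 69.22, and 69.48 against 92.24, 88.95, and 91.79 CPM. The lines did not overlap, and *Akt2* (GRCm39 chromosome 7, 27284378 to 27340262) rose with log2 fold changes of 0.41 (SE 0.0371, adjusted p = 1.01e-06) and 0.37 (SE 0.0372, adjusted p = 3.15e-06). In all, 7.20% of the 31-base sequences of *Akt2* also occur elsewhere, mostly in a pseudogene.

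*Akt1* itself was at 332.4, 319.4, and 325.7 CPM in scramble samples and 344.7, 349.0, and 342.5 CPM in shSrsf3 samples without ligand. Upon ligand stimulation it was at 343.8, 327.4, and 337.4 against 347.8, 334.0, and 335.8 CPM. The groups were separate in the absence of ligand only, where the log2 fold change of 0.08 (SE 0.0326) was at the threshold (adjusted p = 0.0488), and with ligand it was 0.01 (SE 0.0326, adjusted p = 0.786). The call was lost without any 1 of 7 samples, which were scramble sample 2 and all 3 shSrsf3 samples of the unstimulated groups, scramble samples 1 and 3 of the stimulated group, and shSrsf3 sample 2 of the stimulated group (adjusted p from 0.0544 to 0.14).

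*Phlpp2*, which encodes a phosphatase that removes an activating phosphate from Akt, was at 24.34, 23.33, and 24.93 CPM in scramble samples and 30.43, 30.83, and 34.07 CPM in shSrsf3 samples without ligand. With ligand it was at 26.36, 24.44, and 28.7 against 32.33, 30.57, and 32.15 CPM. It was higher in shSrsf3 cells with no overlap, with log2 fold changes of 0.39 (SE 0.0593, adjusted p = 0.000136) and 0.26 (SE 0.0597, adjusted p = 0.00356). Its paralog *Phlpp1* was not called, with log2 fold changes of 0.01 (adjusted p = 0.866) and -0.03 (adjusted p = 0.662). *Mtor* and *Rictor*, which encode subunits of a complex that phosphorylates Akt, were not called in any comparison, with log2 fold changes between -0.05 and 0.07 in the shRNA comparisons. Without unstimulated scramble sample 3, *Mtor* was called in the absence of ligand, at 0.18 against 0.07 with all samples (adjusted p = 0.0144). *Pdpk1*, the other kinase that activates Akt, had a log2 fold change of -0.12 with ligand (SE 0.0469, adjusted p = 0.0489). That call was lost without any 1 of 9 samples, which were all but scramble sample 3 and shSrsf3 sample 1 of the unstimulated groups and scramble sample 2 of the stimulated group (adjusted p from 0.054 to 0.202).

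The 5-phosphatases and 4-phosphatases, which turn PI3K products and their precursors into less phosphorylated forms, moved in both directions. Of the 11 tested, 3 were higher, 3 were lower, and 5 were not called without ligand, and the same counts were found with ligand, against 45.9% and 41.0% of all genes called. *Inpp5k*, a 5-phosphatase expressed in muscle and other tissues (GRCm39 chromosome 11, 75520578 to 75539698), was at 31.67, 29.7, and 30.93 CPM in scramble samples and 22.03, 23.86, and 21.56 CPM in shSrsf3 samples without ligand. In the stimulated groups, its level was 29.91, 29.2, and 29.45 against 22.12, 22.27, and 19.79 CPM. All shSrsf3 samples were lower, with log2 fold changes of -0.45 (SE 0.0503, adjusted p = 8.32e-06) and -0.46 (SE 0.0518, adjusted p = 8.87e-06), and the promoter window of this gene is among those shown above.

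*Inpp4a*, a 4-phosphatase, moved the other way. It was at 13.72, 14.14, and 16.13 CPM in scramble samples and 19.72, 20.1, and 21.15 CPM in shSrsf3 samples without ligand, and at 15.35, 14.87, and 16.17 against 20.28, 18.49, and 17.77 CPM with ligand. The lines did not overlap, and the log2 fold changes were 0.46 (SE 0.0663, adjusted p = 7.82e-05) and 0.29 (SE 0.0674, adjusted p = 0.00383). *Inpp5a*, which acts on soluble inositol phosphates, was at 36.16, 33.7, and 31.59 CPM in scramble samples and 39.09, 40.83, and 41.1 CPM in shSrsf3 samples without ligand, and at 33.75, 32.08, and 31.67 against 39.52, 39.99, and 40.36 CPM with ligand. It was higher without overlap, with log2 fold changes of 0.26 (SE 0.0476, adjusted p = 0.000659) and 0.30 (SE 0.0481, adjusted p = 0.000228).

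*Inpp5f* and *Synj1*, both with Sac phosphatase domains, were lower in both comparisons, with log2 fold changes of -0.18 and -0.20 (adjusted p = 0.00807 and 0.00446) and of -0.12 and -0.20 (adjusted p = 0.0378 and 0.00286), respectively. The *Inpp5f* call with ligand was lost at equal depth (-0.15, adjusted p = 0.0686). The *Synj1* call without ligand was lost when any 1 of 6 samples was left out, which were samples 2 and 3 of scramble and 1 and 2 of shSrsf3 without ligand and samples 1 and 3 of shSrsf3 with ligand (adjusted p from 0.0539 to 0.222). *Ocrl*, the Lowe syndrome 5-phosphatase, was higher without ligand at 0.17 (adjusted p = 0.00812), and was not called with ligand at 0.09 (adjusted p = 0.12). Without the 3 libraries of low mapping rate, its change without ligand was 0.11. All 3 are scramble samples (unstimulated 1 and 2, stimulated 2). Their removal leaves unstimulated scramble sample 3 alone in its group, so effect sizes alone are given for that fit here. *Inpp4b* was called with ligand only, from 0.1163, 0.1063, and 0.1237 CPM in scramble samples to 0.2672, 0.2478, and 0.2575 CPM in shSrsf3 samples, a log2 fold change of 1.14 (SE 0.32, adjusted p = 0.019). Without shSrsf3 sample 1 of that group, it was 1.11 and not called (adjusted p = 0.0617), and it was also not called with DESeq2 (adjusted p = 0.093), with no low-count filter (adjusted p = 0.122), or without the 3 libraries of low mapping rate (adjusted p = 0.0643). *Inppl1*, which encodes the 5-phosphatase SHIP2, had log2 fold changes of 0.02 in both comparisons (adjusted p = 0.712 and 0.744) at 27.5 ± 0.691 CPM per kb of exon in unstimulated scramble samples (SD, n = 3). *Inpp5b*, *Inpp5e*, and *Synj2* were not called in either. *Inpp5e* was at the threshold without ligand (-0.12, adjusted p = 0.0506) and was called without unstimulated scramble sample 1 or 2 or stimulated scramble sample 2 (adjusted p from 0.0444 to 0.0473). Without these 3 libraries together, which are those of low mapping rate, its change was -0.21. *Inpp5b* was called with ligand when stimulated scramble sample 1 was left out (0.17, adjusted p = 0.0326). *Inpp5j* had between 0 and 5 counts per sample. Its counts were 3, 1, and 2 in unstimulated scramble, 4, 3, and 2 in unstimulated shSrsf3, 5, 3, and 2 in stimulated scramble, and 1, 0, and 0 in stimulated shSrsf3 samples.

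Myotubularins remove the phosphate that class II and class III PI3K enzymes add on endosomes, and some members are inactive partners of the active enzymes. None of the 11 was called higher, and 4 were called lower in each shRNA comparison, while 7 were not called in each. Of all genes tested, 22.2% and 20.3% were called higher and 23.7% and 20.7% lower, and with 11 genes these counts are a description. *Mtmr9*, an inactive partner, was at 46.27, 43.52, and 46.33 CPM in scramble samples and 35.69, 36.94, and 37.64 CPM in shSrsf3 samples without ligand. Upon ligand stimulation it was at 45.29, 41.96, and 43.22 against 38.8, 37.57, and 36.63 CPM. The lines were fully separate, with log2 fold changes of -0.30 (SE 0.0427, adjusted p = 6.35e-05) and -0.21 (SE 0.0432, adjusted p = 0.00167).

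*Mtmr7* had the largest fold change among the lower members and was near the detection limit. It was at 0.5456, 0.5517, and 0.6299 CPM in scramble samples and 0.4144, 0.3644, and 0.1611 CPM in shSrsf3 samples without ligand, and at 0.8969, 0.7089, and 0.5719 against 0.3741, 0.3097, and 0.2897 CPM with ligand. The log2 fold changes were -0.81 (SE 0.303, adjusted p = 0.0434) and -1.15 (SE 0.318, adjusted p = 0.0105). The call without ligand was lost when any 1 of 9 samples was left out, which were all but shSrsf3 sample 1 of the unstimulated group and scramble samples 1 and 3 of the stimulated group (adjusted p from 0.0538 to 0.134). *Mtmr1* was lower at -0.16 (adjusted p = 0.0189) and -0.32 (adjusted p = 0.000227), and the former was lost without scramble sample 2 or 3 or shSrsf3 sample 1 or 2 of the unstimulated groups (adjusted p from 0.0657 to 0.0751). *Mtmr14* was lower without ligand only, at -0.13 (adjusted p = 0.0321), and was lost without scramble sample 1 or 3 or shSrsf3 sample 2 or 3 of those groups (adjusted p from 0.0537 to 0.137). *Mtmr10* was lower with ligand only, as described with the response to ligand. *Mtm1*, *Mtmr2*, *Mtmr3*, *Mtmr4*, *Mtmr6*, and *Mtmr12* were not called in either comparison, with log2 fold changes between -0.11 and 0.18. *Mtmr3* was called lower with ligand when unstimulated scramble sample 3 was left out (-0.11, adjusted p = 0.034). Without the 3 libraries of low mapping rate, it changed by -0.20 without ligand and -0.13 with ligand.

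Enzymes that make or turn over the membrane precursor of the PI3K product were also split. *Pip4k2b*, a kinase of the 4-kinase family acting on a monophosphorylated lipid, was at 84.22, 81.56, and 76.88 CPM in scramble samples and 94.28, 93.69, and 96.27 CPM in shSrsf3 samples without ligand. With ligand it was at 77.65, 77.42, and 74.16 against 89.41, 91.74, and 98.68 CPM. It was higher without overlap, with log2 fold changes of 0.23 (SE 0.0456, adjusted p = 0.00111) and 0.29 (SE 0.0458, adjusted p = 0.000204). Its paralog *Pip4k2a* was lower, at -0.20 and -0.22 (adjusted p = 0.00659 and 0.00614), and *Pip4k2c* was lower with ligand only, at -0.12 (adjusted p = 0.0268). The latter call was lost without scramble sample 1 or 2 or shSrsf3 sample 2 or 3 of the stimulated groups (adjusted p from 0.0586 to 0.0895).

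Among the 5-kinases that supply the substrate of class I PI3K, *Pip5k1c* was the most abundant in unstimulated scramble samples, at 29.4 ± 1.01 CPM per kb of exon (SD, n = 3), and was lower in shSrsf3 cells, with log2 fold changes of -0.13 and -0.11 (adjusted p = 0.00963 and 0.0205). The call with ligand was lost without scramble sample 1 or 2 or shSrsf3 sample 1 of the stimulated groups (adjusted p from 0.0551 to 0.079). Without the 3 libraries of low mapping rate, the change without ligand was -0.08. *Pip5k1a* was higher without ligand, at 0.12 (adjusted p = 0.0438), which was lost without any 1 of 6 samples. These were scramble sample 3 and shSrsf3 samples 1 and 2 without ligand, and scramble samples 1 and 3 and shSrsf3 sample 2 with ligand (adjusted p from 0.0561 to 0.145). *Pip5k1b* had between 0 and 3 counts per sample, with 0, 2, and 1 in unstimulated scramble, 0, 2, and 0 in unstimulated shSrsf3, 3, 0, and 0 in stimulated scramble, and 0, 1, and 1 in stimulated shSrsf3 samples. Of the endosomal complex of *Pikfyve*, its scaffold *Vac14*, and the phosphatase *Fig4*, *Vac14* was higher without ligand, at 0.17 (SE 0.0392, adjusted p = 0.00254), and at 0.09 with ligand it was not called (adjusted p = 0.0829). *Pikfyve* and *Fig4* were not called in either comparison, although *Pikfyve* was called with ligand at -0.16 without stimulated scramble sample 2 (adjusted p = 0.0345). Without the 3 libraries of low mapping rate, *Pikfyve* was also at -0.16 with ligand.

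The largest rise among members above 1 CPM was that of *Pi4k2b*, a type II PI4 kinase (GRCm39 chromosome 5, 52898912 to 52926687). It was at 17.17, 17.4, and 18.83 CPM in scramble samples and 26.23, 28.81, and 28.75 CPM in shSrsf3 samples without ligand. In the stimulated groups, its level was 17.27, 16.04, and 18.92 against 27.39, 25.99, and 28.9 CPM. The lowest shSrsf3 sample was above the highest scramble sample by more than the range within either line, and the log2 fold changes were 0.65 (SE 0.0647, adjusted p = 3.03e-06) and 0.65 (SE 0.0655, adjusted p = 3.13e-06). Its paralog *Pi4k2a* was not called, at 0.09 (adjusted p = 0.115) and 0.03 (adjusted p = 0.61). Per kb of exon, *Pi4k2b* made up 30.9% ± 0.724 of the summed level of the pair in unstimulated scramble samples and 39.7% ± 0.946 in unstimulated shSrsf3 samples (SD, n = 3). The corresponding shares upon ligand stimulation were 29.3% ± 2.12 and 39.0% ± 2.73. *Sacm1l*, which encodes the phosphatase that reverses PI4 kinases at the endoplasmic reticulum, was also higher, at 0.20 and 0.17 (adjusted p = 0.00158 and 0.00539). The type III kinases *Pi4ka* and *Pi4kb* were not called, with log2 fold changes between -0.18 and 0.04. *Pi4kb* was called with ligand without unstimulated scramble sample 3 (-0.18, adjusted p = 0.0145), with no low-count filter (-0.19, adjusted p = 0.00641), and with only the groups compared (-0.17, adjusted p = 0.031). Without the 3 libraries of low mapping rate, which leaves unstimulated scramble sample 3 alone in its group, *Pi4kb* changed by -0.21 with ligand and -0.22 without.

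**Figure D3:**
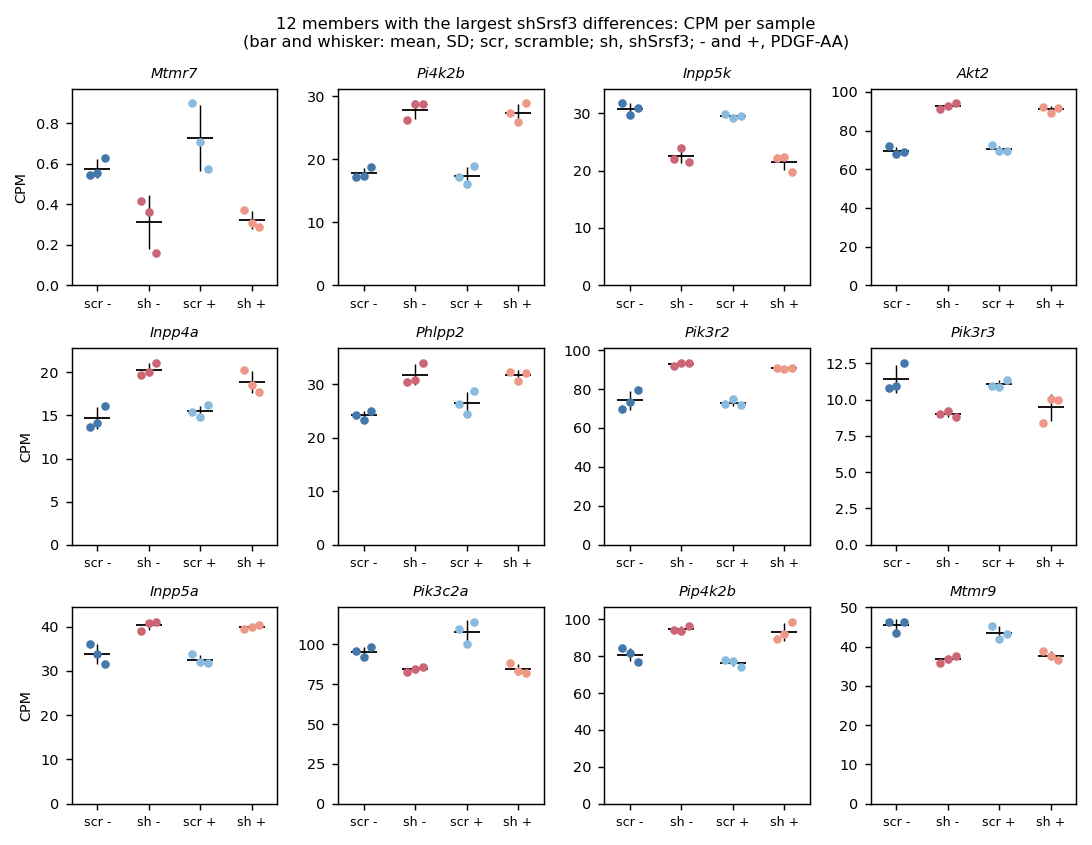
Level in CPM (y axis, from 0) of the 12 members with the largest shSrsf3 differences among those called with the same sign in both comparisons, with 1 point per sample, a bar at the mean, and whiskers of 1 SD for each group on the x axis. *Pi4k2b* moves from at most 18.92 CPM in scramble samples to at least 25.99 CPM in shSrsf3 samples, and *Mtmr7* stays under 1 CPM throughout.

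The response to 1 hr of PDGF-AA was small in these genes. In scramble cells, 1 of the 50 members was called, or 2.00%, while 4.04% of all genes tested were called, and 9 had an unadjusted p under 0.05. The 3 stimulated and 3 unstimulated samples did not overlap for 12 members, or 24% against 18.8% of all genes. In shSrsf3 cells, the edgeR test called 0 members, while 0.565% of all genes were called, 3 members had an unadjusted p under 0.05, and DESeq2 and limma-voom also called 0. There, 6 members did not overlap, or 12% against 18%. The median absolute log2 fold change of the members was 0.06 in scramble cells and 0.04 in shSrsf3 cells, compared with 0.09 and 0.07 over all genes. Here too, all genes were not matched to the members for expression.

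*Mtmr10*, an inactive myotubularin (GRCm39 chromosome 7, 63937218 to 63990557), was the called member. It was at 51.23, 52.14, and 52.21 CPM in unstimulated and 64.64, 61.23, and 66.0 CPM in stimulated scramble samples. Every stimulated sample was above every unstimulated one, with a log2 fold change of 0.30 (SE 0.0505, adjusted p = 0.00419). The call held when each sample was left out in turn (log2 fold change from 0.28 to 0.33, adjusted p from 0.00227 to 0.0315). In shSrsf3 cells it was at 48.39, 50.29, and 52.0 CPM without and 55.26, 51.73, and 59.54 CPM with ligand, the groups overlapped, and the log2 fold change of 0.14 did not pass the test (SE 0.0511, adjusted p = 0.329). The difference between the responses of the lines was -0.16 on the log2 scale and was not called (adjusted p = 0.874). With ligand, *Mtmr10* was lower in shSrsf3 than in scramble samples, at -0.20 (SE 0.0508, adjusted p = 0.00539), and without ligand the log2 fold change was -0.05 (adjusted p = 0.474). The stimulated scramble samples enter both the ligand comparison and the shRNA comparison.

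*Pik3c2a* lay just beyond the threshold in scramble cells, with a log2 fold change of 0.18 (SE 0.0485, adjusted p = 0.0565), and its stimulated and unstimulated samples did not overlap. It was called when unstimulated scramble sample 3 (0.21, adjusted p = 0.0266) or stimulated scramble sample 2 (0.23, adjusted p = 0.0141) was left out, with DESeq2 (adjusted p = 0.00858), and with limma-voom (adjusted p = 0.0464). In shSrsf3 cells, the log2 fold change was 0.00 (SE 0.0491, adjusted p = 0.996). The next smallest adjusted p in scramble cells was that of *Mtmr12*, at 0.14 (adjusted p = 0.116). Of the class I subunits and *Akt1* and *Akt2*, none was called for ligand in either line, with log2 fold changes between -0.21 and 0.23.

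**Figure D4:**
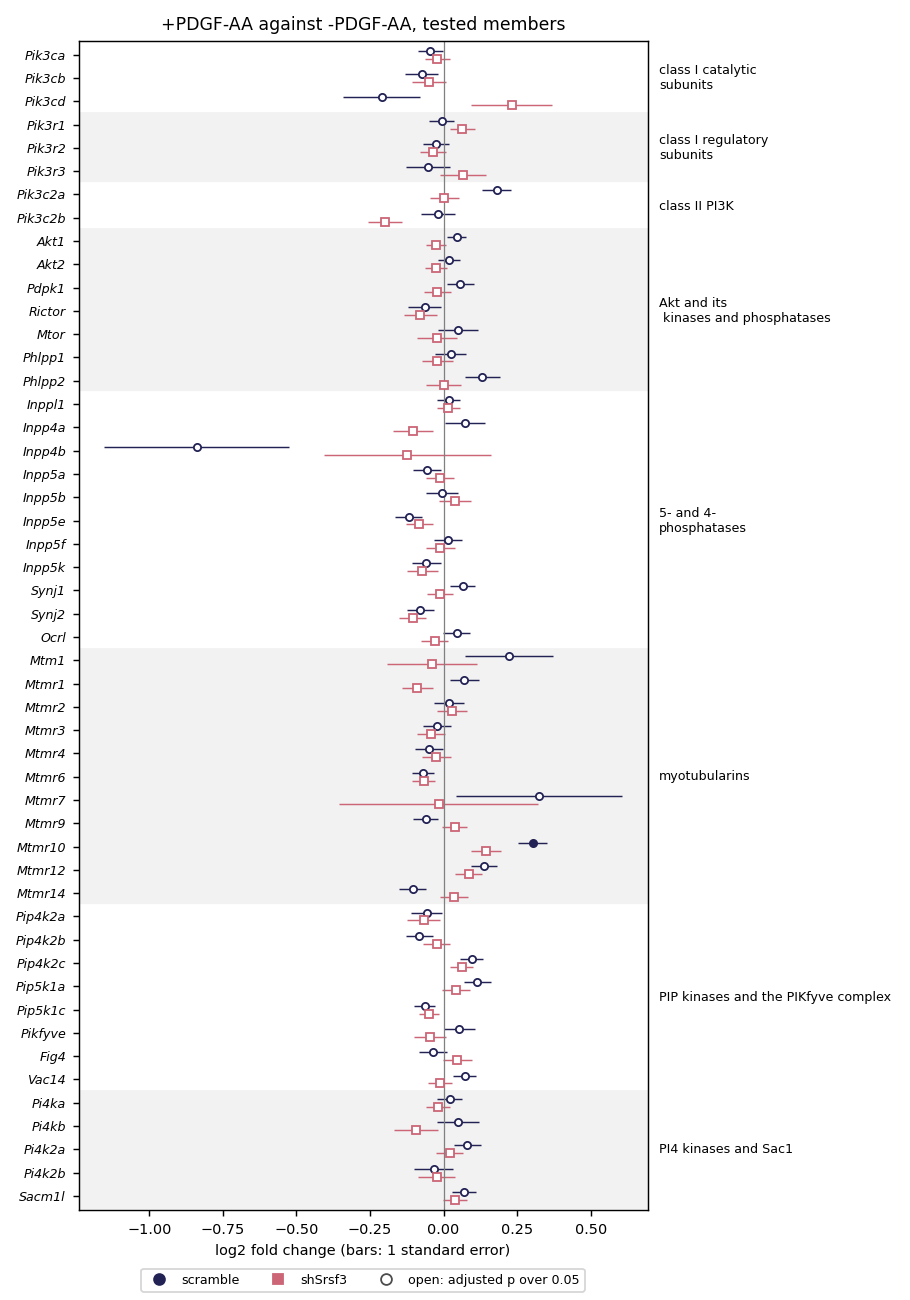
Log2 fold change (x axis) of stimulated against unstimulated samples for the 50 tested members (y axis, grouped by role) in each line, with bars of 1 standard error and filled symbols where the adjusted p was at most 0.05. The only filled symbol is *Mtmr10* in scramble cells, at 0.30.

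**Figure D5:**
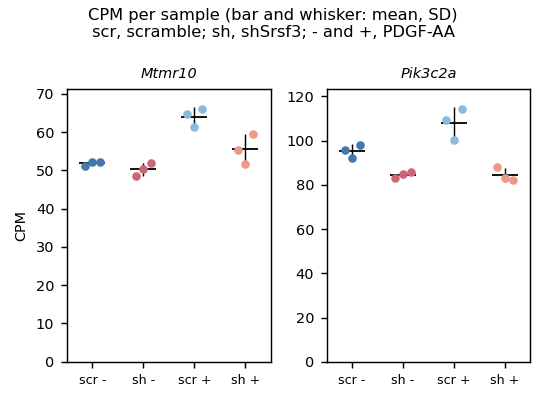
Level in CPM (y axis, from 0) of *Mtmr10* and *Pik3c2a* in each sample, with a bar at the mean and whiskers of 1 SD for each group on the x axis. Stimulated scramble samples lie at 61.23 to 66.0 CPM for *Mtmr10* and 100.4 to 114.3 CPM for *Pik3c2a*, above the unstimulated scramble samples.

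The interaction of shRNA and ligand was called for 0 members by edgeR, DESeq2, and limma-voom, while edgeR called 0.0133% of all genes tested. Without adjustment, 5 members had a p under 0.05. These were *Pik3cd* (0.44 on the log2 scale), *Pik3c2a* (-0.18), *Pik3c2b* (-0.18), *Mtmr1* (-0.16), and *Mtmr10* (-0.16), and the adjusted p was 0.874 for each. The calls made for *Pik3cd*, *Pik3c2b*, or *Mtmr10* in 1 ligand condition and not in the other are therefore not shown to differ between conditions. The same holds for every other member among the 7 called only without ligand and the 4 called only with ligand.

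The other genes of the pathway were taken from a list of 72 that holds further adaptors, phosphoinositide and inositol phosphate enzymes, phospholipase C genes, and Akt and mTOR pathway genes, of which 62 were tested. Without ligand, 31 were called between the lines, or 50.0% against 45.9% of all genes, with 19 higher (30.6% against 22.2%) and 12 lower (19.4% against 23.7%). With ligand, 33 were called, or 53.2% against 41.0%, with 22 higher (35.5% against 20.3%) and 11 lower (17.7% against 20.7%). In both, 18 were called higher, or 29.0% against 16.7% of all genes, and 10 lower, or 16.1% against 16.9%. *Pik3r5*, which encodes the regulatory partner of the product of *Pik3cg*, was at 2.546, 2.621, and 2.519 CPM in scramble samples and 5.503, 5.831, and 5.664 CPM in shSrsf3 samples without ligand, a log2 fold change of 1.14 (SE 0.111, adjusted p = 2.13e-06). With ligand the change was 1.47 (SE 0.118, adjusted p = 3.87e-07), so that the regulatory gene was higher while *Pik3cg* stayed at or under 3 counts. *Plce1*, a phospholipase C, rose by 1.32 and 1.30 on the log2 scale (adjusted p = 9.57e-10 and 1.14e-09). *Sgk3*, a kinase related to Akt, fell by 1.07 and 1.06 on this scale (adjusted p = 0.000701 and 0.0011). *Pik3ip1*, an inhibitor of PI3K, fell from 24.68, 27.59, and 27.76 CPM to 13.49, 14.44, and 14.68 CPM without ligand, a log2 fold change of -0.91 (SE 0.0604, adjusted p = 5.44e-08), and changed by -0.73 with ligand (adjusted p = 1.02e-06).

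Several of these other genes responded to ligand. In scramble cells, 9 of 62 were called, or 14.5% against 4.04% of all genes, with 3 higher and 6 lower, and in shSrsf3 cells 4 were called, or 6.45% against 0.565%, with 1 higher and 3 lower. The 4 called in both lines, named here after their values were seen, were *Pik3ip1*, the adaptor genes *Irs1* and *Irs2*, and *Sgk1*, a kinase related to Akt. *Pik3ip1* was at 17.85, 20.15, and 18.13 CPM in stimulated scramble samples, a log2 fold change of -0.51 from the unstimulated level (SE 0.059, adjusted p = 0.000262). In shSrsf3 cells, *Pik3ip1* changed by -0.33 (adjusted p = 0.0459). *Irs1* changed by -0.33 and -0.36 (adjusted p = 0.0136 and 0.0288), *Irs2* by -0.35 and -0.34 (adjusted p = 0.00349 and 0.0152), and *Sgk1* by 0.32 and 0.28 (adjusted p = 0.0025 and 0.0141) in scramble and shSrsf3 cells, respectively.

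The ligand calls in shSrsf3 cells were near the threshold. There, *Irs1* was lost without any 1 of 8 samples, which were all but unstimulated scramble samples 2 and 3 and stimulated scramble samples 1 and 2 (log2 fold change from -0.39 to -0.30, adjusted p from 0.0553 to 0.208). *Pik3ip1* was lost without any 1 of 9, which were all but unstimulated scramble samples 1 and 3 and stimulated scramble sample 2 (log2 fold change from -0.36 to -0.30, adjusted p from 0.0522 to 0.184), and also with limma-voom (adjusted p = 0.117) and at equal depth (adjusted p = 0.07). *Irs2* was lost without any unstimulated shSrsf3 sample or stimulated shSrsf3 sample 2 or 3 (adjusted p from 0.0547 to 0.102), and *Sgk1* without shSrsf3 samples 1 and 2 of the unstimulated or 1 and 3 of the stimulated group, each left out alone (adjusted p from 0.053 to 0.132). In scramble cells, *Irs1* was lost without stimulated sample 3 (-0.33, adjusted p = 0.0664) and with only the groups compared (-0.32, adjusted p = 0.057), and none of the other 3 was lost when any sample was left out. The count of 9 calls in scramble cells became 5 without unstimulated scramble sample 2 or stimulated scramble sample 1, and 3 without stimulated scramble sample 3. The count of 4 in shSrsf3 cells became 0 without unstimulated shSrsf3 sample 1 or 2 or stimulated shSrsf3 sample 3. It became 1 without unstimulated shSrsf3 sample 3 or stimulated shSrsf3 sample 1 or 2, and 2 without stimulated scramble sample 3.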

How the data were processed

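Stranded libraries from polyadenylated RNA of 12 iMEPM samples were sequenced. The authors used BBDuk for trimming, Salmon 1.4.0 with GENCODE transcripts on GRCm39 for quantification, and tximport for sums by gene. The deposited values are expected counts, which are estimates and not scaled to library size. Of the deposited values, 16.3% were not whole. Transcript lengths were not used here, so a shift in isoform length could change a count. All per-sample columns were used, and alternative splicing files were not.

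After rounding of the expected counts, low genes were removed with filterByExpr (minimum count 10), and libraries were scaled by the trimmed mean of M-values (TMM) in edgeR 4.0.16 (R 4.3.3). The edgeR quasi-likelihood test was fitted to 15037 genes in 12 samples with a mean for each of 4 groups. Genes were called where p, adjusted over all genes tested by the Benjamini-Hochberg method, was at most 0.05, and a second count required a 2-fold change. The standard error was derived from the log2 fold change and its F statistic. The biological coefficient of variation was 0.0701. CPM values use TMM factors, and levels between genes were divided by the exon length of the canonical transcript. Lengths and shared 31-base sequences came from a later GENCODE release on GRCm39, and promoters from RefSeq. Alternatives were DESeq2 1.42.0, limma-voom (limma 3.58.1), DESeq2 size factors, no filter, equal depth, only the groups compared, a replicate block, each sample left out, and 3 libraries of low mapping rate left out. The 3 libraries were scramble samples 1 and 2 of the unstimulated group and 2 of the stimulated group, so low mapping rate and line are confounded. Low mapping rate is also unbalanced between the unstimulated and stimulated scramble samples. Leaving them out keeps unstimulated scramble sample 3 alone in its group, and counts of calls from that fit carry this limit. Statistical steps were tested on simulated data. Figures used matplotlib 3.10.9.

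Members and gene lists were chosen with earlier results of these data known. Sample values were named for the 12 members with the largest mean shSrsf3 difference among those called with 1 sign in both comparisons, members called for ligand, class I subunits with *Akt1* and *Akt2*, and members below the filter. From the other pathway genes, the 2 largest in each direction were named. Replicates differed by more than sampling noise, most of all among scramble samples. Chi-square per degree of freedom was 25.7 and 33.9 for unstimulated scramble sample 3 against samples 1 and 2. It was 24.2 and 16.9 for stimulated scramble sample 2 against samples 1 and 3. Each of these pairs set a library of low mapping rate against a library of higher rate, and the part of mapping rate was not tested. The other scramble pairs were at 5.47 and 7.14, and the shSrsf3 pairs at 4.19 to 8.82. Floors cover counting error only.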

Additional observations from a re-analysis of the deposited data

How the results depend on the processing

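Members called between the lines numbered 21 to 27 without ligand and 20 to 25 with ligand under the alternatives that kept all libraries or left out the 3 of low mapping rate. Leaving out each sample gave 20 to 27 and 19 to 26, respectively. For the ligand in scramble cells, the main count of 1 member became 2 with DESeq2, with limma-voom, and with no low-count filter. It ranged from 1 to 2 when each sample was left out. The added member was *Pik3c2a* in the first 3 cases. Without the 3 libraries of low mapping rate, which leaves 1 unstimulated scramble sample, the ligand change of *Inpp5e* in scramble cells was -0.24. No member was called for the ligand in shSrsf3 cells or for the interaction under any alternative run. For the other pathway genes, the 9 ligand calls in scramble cells became 3 when only the groups compared were fitted and ranged from 3 to 13 when each sample was left out. The 4 in shSrsf3 cells ranged from 0 to 4 when each sample was left out. These fits hold fewer samples, and the cause was not tested further.

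Of 79 called values of tested members and named pathway genes, 53 kept their call under all 20 alternatives, and 26 lost it under at least 1, with between 1 and 15 lost under a given alternative. None reversed. With DESeq2, the calls lost among members were those of *Synj1*, *Mtmr1*, *Mtmr7*, and *Mtmr14* without ligand and of *Pik3r3*, *Pdpk1*, *Inpp4b*, and *Pip4k2c* with ligand. The labels state no pairing by replicate number, and the samples were treated as unpaired. Correlations of same-numbered samples were between -0.142 and 0.201, which cannot exclude that they were handled together. With the replicate number as a block, 27 and 24 members were called between the lines, 1 and 0 for the ligand in scramble and shSrsf3 cells, and 0 for the interaction, and 1 call of the 79 was lost.

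Genes under 1 CPM, such as *Mtmr7* and *Inpp4b*, rest on few counts, and their fold changes have the widest errors. A library count of 3 corresponds to between 0.0388 and 0.0965 CPM. All p-values measure the spread between replicates of 1 line per shRNA.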
